A study of Homo sapiens with 6 samples.

Results

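The genes described here are 10 genes of zinc binding and the zinc response, of 59074 genes with a deposited expression value: the metallothionein genes MT1A, MT1E, MT1F, MT1G, MT1L, MT1M, MT1X and MT2A, the transcription factor gene MTF1 and the zinc exporter gene SLC30A1. They were selected on measured values of the same 6 libraries, the CPM (reads per 10⁶ reads) in each cell line and its change after knock-down, so these values are given as a description, and no p is given for them. The RNA came from 3 established lines of glioblastoma, named LN-229 (LNT229 in the sample titles), T98G and U251. Each was transfected with siPOOLs (pools of siRNAs) against the long non-coding RNA HOTAIRM1 (siHOTAIRM1) or with non-target siPOOLs (siControl), and RNA was isolated 72 h later. There was 1 library per cell line and condition, so no cell line had a replicate and the 3 cell lines stand in for replicates. Both conditions went through the same lipid transfection, and untransfected cells were not analysed here.

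Metallothioneins are small, cysteine-rich proteins that bind zinc and copper ions and also take up cadmium. When free zinc rises, the zinc finger factor MTF1 binds short DNA words called metal response elements in front of the metallothionein genes and SLC30A1, and their transcription goes up. The bound or exported metal then no longer acts in the cytosol, and in brain tumour cells as in other cells the level of metallothionein RNA is widely read as a sign of available zinc, of other metals or of stress.

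Promoters are shown first because the response runs through them. RefSeq start sites (GRCh38.p14) were available for 4 of the 10 members, MT2A, MT1X, SLC30A1 and MTF1, and for 3 of the other metallothionein genes, MT1B, MT1H and MT4. In the 250 bases before the start, the core of the metal response element was searched as TGCGCNC or TGCACNC on both strands. Capitals mark these cores and, within the 40 bases before the start, the word TATAA of a TATA box. The sequences belong to MT2A (chr16:56608334-56608583, plus strand), MT1X (chr16:56682220-56682469, plus strand), SLC30A1 (chr1:211579162-211579411, minus strand) and, as a family gene outside the 10, MT1H (chr16:56669564-56669813, plus strand).
MT2A: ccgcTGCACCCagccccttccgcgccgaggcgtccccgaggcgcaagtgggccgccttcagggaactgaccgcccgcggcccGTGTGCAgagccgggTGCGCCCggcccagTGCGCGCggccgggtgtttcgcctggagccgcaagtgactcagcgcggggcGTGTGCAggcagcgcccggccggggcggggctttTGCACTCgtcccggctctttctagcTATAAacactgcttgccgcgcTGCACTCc
MT1X: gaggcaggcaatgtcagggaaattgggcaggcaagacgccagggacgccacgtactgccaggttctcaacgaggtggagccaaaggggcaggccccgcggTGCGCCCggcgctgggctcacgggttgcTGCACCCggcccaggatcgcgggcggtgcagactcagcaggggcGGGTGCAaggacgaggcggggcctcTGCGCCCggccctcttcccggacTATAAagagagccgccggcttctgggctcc
SLC30A1: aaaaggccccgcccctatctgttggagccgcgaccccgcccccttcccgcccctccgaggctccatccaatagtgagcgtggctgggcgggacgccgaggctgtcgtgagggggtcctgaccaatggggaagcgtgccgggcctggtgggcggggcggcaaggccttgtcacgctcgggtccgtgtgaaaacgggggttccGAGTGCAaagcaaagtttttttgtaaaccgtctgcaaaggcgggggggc
MT1H: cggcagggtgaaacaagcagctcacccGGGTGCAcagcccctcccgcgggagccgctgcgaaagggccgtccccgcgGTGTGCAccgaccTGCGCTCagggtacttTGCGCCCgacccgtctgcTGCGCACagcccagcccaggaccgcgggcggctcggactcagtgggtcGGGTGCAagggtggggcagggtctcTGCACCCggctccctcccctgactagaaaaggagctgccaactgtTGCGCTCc

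The MT2A promoter held 7 cores, 5 of them on the strand of the gene, and a TATAA word at position −29. MT1X held 4 cores and a TATAA word at −30. SLC30A1 held 1 core, at −49 on the opposite strand, and no TATAA word, and the MTF1 promoter held 0 cores. Of 35116 promoters, 24.8% held at least 1 core, 0.370% held at least 4 and 4.34% held TATAA in the 40 bases before the start. MT1H held 8 cores, more than either metallothionein member shown, but no TATAA word, and was at 0 reads in the 6 libraries. MT1B and MT4, each with 3 cores and a TATAA word, were also at 0 reads. A core is a match of letters, and binding of MTF1 was not measured.

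**Figure D1:**
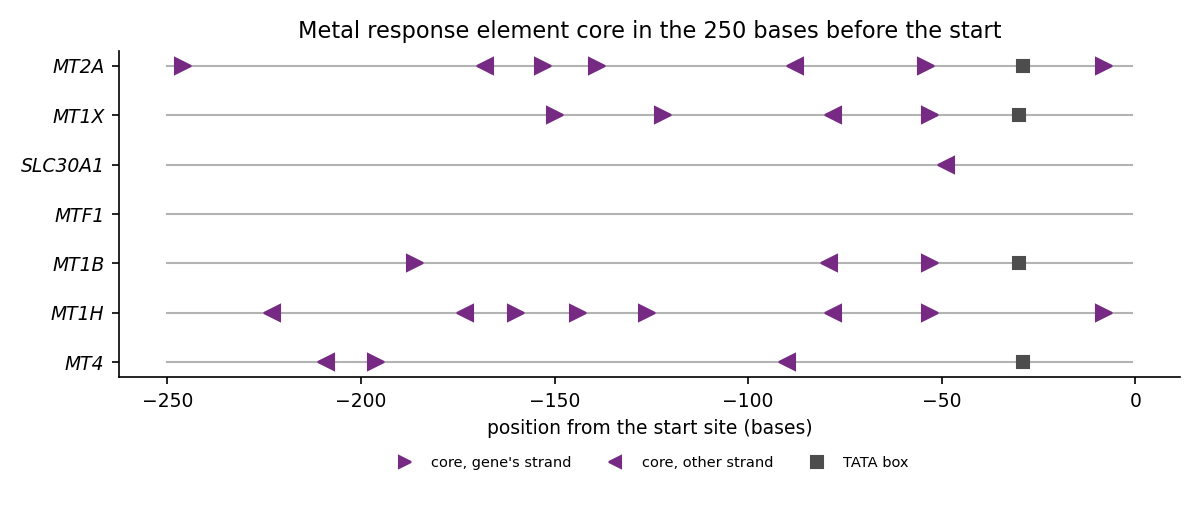
Position of each metal response element core (triangles, pointing right on the strand of the gene and left on the other) and TATAA word (squares) in the 250 bases before the start site of 7 genes, in bases from the start. MT2A carries 7 cores, MT1X 4, SLC30A1 1 and MTF1 0, and MT1H, which had 0 reads, carries 8.

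The 8 metallothionein members lie in 1 cluster on chromosome 16 of hg38. MT2A (ENSG00000125148) runs from 56608584 to 56609497 and has 3 exons, MT1E (ENSG00000169715) from 56625475 to 56627112 with 2 exons, MT1F (ENSG00000198417) from 56657731 to 56660698 with 3 exons, and MT1X (ENSG00000187193) from 56682470 to 56684196 with 3 exons. All 4 are on the plus strand and protein-coding. MT1L is annotated as a pseudogene. MTF1 (ENSG00000188786) lies on chromosome 1 from 37809574 to 37859592 and SLC30A1 (ENSG00000170385) on chromosome 1 from 211571568 to 211579161, both on the minus strand.

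The depth, taken from the CPM that 1 read is worth, ranged from 52.3 M reads (U251, siControl) to 104 M reads (LN-229, siHOTAIRM1). A gene counts as detected above 3 reads, which is 0.0289 to 0.0574 CPM. HOTAIRM1 itself was at 1.99 CPM (siControl) and 0.952 CPM (siHOTAIRM1) in LN-229, 3.49 and 2.15 CPM in T98G, and 1.27 and 0.623 CPM in U251. The targeted RNA was thus lower in the library labelled siHOTAIRM1 of each line.

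The glial identity of the lines was checked on 10 markers. VIM ranged from 254 to 1794 CPM and CD44 from 304 to 819 CPM over the 6 libraries. SOX2 was at 91.4 and 117.3 CPM in U251, 8.15 and 8.60 CPM in LN-229 and at or under 1 read in T98G. NES was at 329 to 507 CPM in LN-229 and U251 and at 0.956 and 0.866 CPM in T98G, and EGFR at 44.4 to 171 CPM in the 6 libraries. GFAP, the defining astrocyte marker, was at 42.5 and 20.7 CPM in U251 and at or under 0.317 CPM in the other lines. Other glial markers were low in some lines: S100B and FABP7 were at or under 1 read in T98G, OLIG2 at or under 1.69 CPM in each library, and CHI3L1 at or under 2 reads in LN-229 and U251. Some markers of other cells were present. PDGFRB, of fibroblasts and pericytes, was at 185 and 188 CPM in T98G (COL1A1 at 1.48 and 2.21 CPM), SNAP25, of neurons, at 5.55 to 8.46 CPM in LN-229 and T98G, KRT8, of epithelium, at up to 3.404 CPM and CDH5, of endothelium, at 2.83 and 1.30 CPM in U251. RBFOX3 (neurons), AIF1 and CX3CR1 (microglia) and CDH1 (epithelium) were at or under 1 read in each library. The 4 microglia and macrophage markers summed to 0.797 CPM (siControl) and 0.821 CPM (siHOTAIRM1) in LN-229, 7.89 and 2.77 CPM in T98G, and 1.11 and 0.334 CPM in U251, nearly all of it CD68. The 3 endothelial markers summed to 3.08 and 1.55 CPM in U251. Like the metallothioneins, the glial and endothelial sums were lower after knock-down in the 3 lines. The glial sum of LN-229 hardly moved (1419 and 1404 CPM). Single markers went both ways: SOX2, NES (329 and 507 CPM) and EGFR (44.4 and 50.1 CPM) were higher in U251. VWF was higher in LN-229 and U251 and PECAM1 in T98G, and the lower endothelial sum of U251 was nearly all CDH5. The neuron and the microglia and macrophage sums were lower in T98G and U251. So were the epithelial sum in LN-229 and U251 and the fibroblast and pericyte sum in LN-229. The part of these markers in the results was not tested. In bulk RNA, fewer cells with a transcript and less of it per cell cannot be told apart.

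The metal-binding proteins come first, beginning with MT2A, the main metallothionein of most human tissues. In LN-229, MT2A was at 39.1 CPM in the siControl library and 36.9 CPM in the siHOTAIRM1 library. In T98G, it was at 18.0 and 11.6 CPM. In U251, it was at 78.4 and 51.3 CPM. U251 had the most MT2A RNA and T98G the least in either condition, and the knock-down library was the lower of each pair. The reduction was 5.49% in LN-229 (95% interval 0.998 to 9.75%), 35.6% in T98G (29.6 to 41.1%) and 34.6% in U251 (31.8 to 37.2%). These intervals, like those that follow, cover counting error only and not the spread between libraries, which is unknown within a cell line. MT2A in LN-229 thus hardly moved, while T98G and U251 lost a similar share. With each library rescaled to its listed genes, these reductions were 8.44%, 24.5% and 21.3%.

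MT1E, an isoform of the MT1 subfamily, differed widely between the lines. In LN-229, MT1E was at 3.10 CPM (Wilson 95% range 2.76 to 3.49) for siControl and 1.71 CPM (1.48 to 1.98) for siHOTAIRM1. The T98G libraries held 3.58 CPM (3.16 to 4.05) and 1.18 CPM (0.958 to 1.46) of it. The U251 libraries held 105 CPM (102 to 108) and 37.0 CPM (35.8 to 38.2). U251 stood far above the other lines, 29.4 times T98G and 33.9 times LN-229 in the siControl libraries, and the levels of LN-229 and T98G overlapped. The reduction of MT1E was 44.8% in LN-229 (33.1 to 54.6%), 66.9% in T98G (57.6 to 74.4%) and 64.8% in U251 (63.3 to 66.3%). A similar share was therefore lost in T98G and U251 from very different starting levels.

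MT1X followed the same order of conditions. In LN-229, MT1X was at 4.05 CPM (siControl) and 3.0004 CPM (siHOTAIRM1). In T98G, it was at 7.19 and 2.94 CPM. In U251, it was at 31.0 and 14.0 CPM. The siHOTAIRM1 libraries of LN-229 and T98G were nearly equal in MT1X, although their siControl libraries were not. The reduction was 25.9% in LN-229 (13.6 to 36.6%), 59.1% in T98G (51.9 to 65.3%) and 54.8% in U251 (51.5 to 58.0%).

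MT1F was detected in T98G and U251 only. It was at 0.753 CPM (siControl, 95% Wilson interval 0.574 to 0.987) and 0.289 CPM (siHOTAIRM1, 0.189 to 0.441) in T98G. U251 had 4.71 CPM (4.16 to 5.33) and 1.92 CPM (1.67 to 2.21). In LN-229, MT1F had 0 reads in both libraries, with upper Wilson limits of 0.0435 and 0.0370 CPM. The reduction of MT1F was 61.6% in T98G (35.2 to 78.1%) and 59.3% in U251 (50.7 to 66.4%), and none can be given for LN-229.

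The other 4 metallothioneins were not detected. MT1A and MT1L had 0 reads in the 6 libraries. MT1M had 2 reads in the siControl library of T98G, or 0.0291 CPM (95% Wilson interval 0.00794 to 0.106), and MT1G had 1 read in the siControl library of U251, or 0.0193 CPM (0.00338 to 0.108). Both stayed under the level of 3 reads, so no change is given for them. MT1G and MT1M code for proteins of the same kind as MT1X, and their RNA was not detectable at a depth that showed MT1X in each library.

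**Figure D2:**
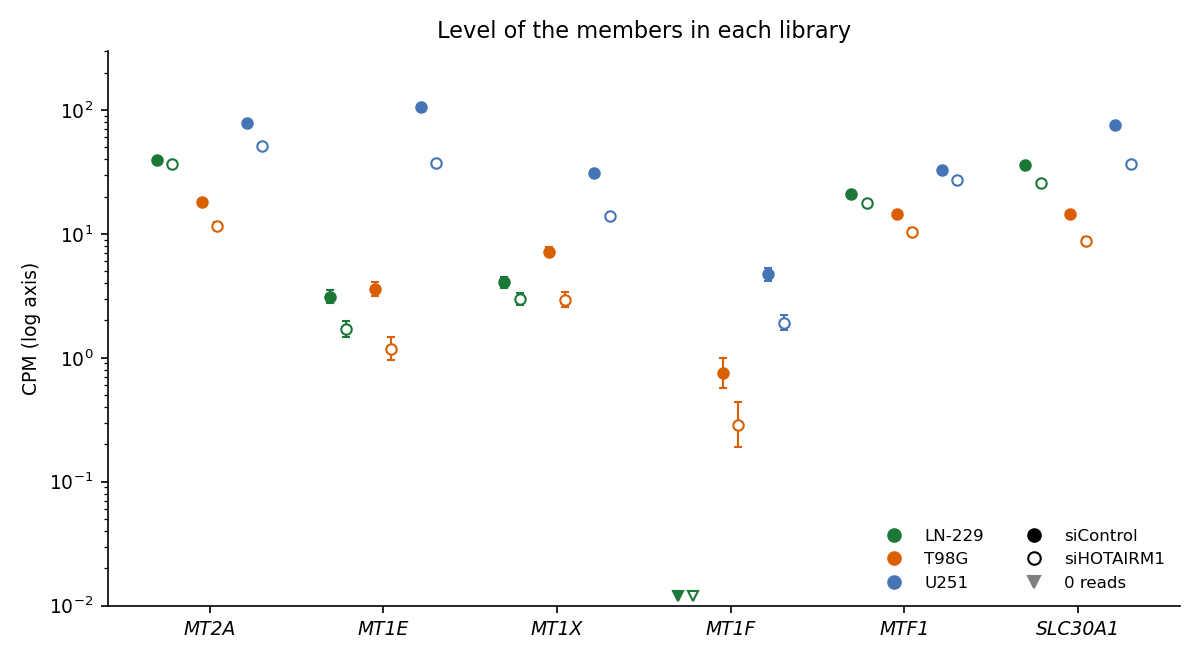
Level of the 6 detected members in each library, in CPM on a log axis, with filled points for siControl, open points for siHOTAIRM1, 95% Wilson intervals as bars and triangles for 0 reads. The open point lies under the filled point of the same line throughout, and MT1F has 0 reads in both LN-229 libraries.

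Levels of different genes were compared per kb of transcript. In the siControl libraries, MT2A was at 97.4 (LN-229), 44.8 (T98G) and 195 (U251) CPM per kb. MT1E was at 4.16, 4.79 and 141 CPM per kb in the same order, and MT1X at 10.03, 17.8 and 76.8. MT2A was thus the most abundant member per kb in each line, with MT1X next in LN-229 and T98G and MT1E next in U251. After knock-down the same order held, with MT2A at 128, MT1E at 49.6 and MT1X at 34.7 CPM per kb in U251.

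Along the cluster, undetected members lie between the detected ones. The 5′ ends of its 16 metallothionein genes and pseudogenes span 117.4 kb, and of the 15 with a value used here 5 had over 3 reads in at least 1 library: MT2A, MT1E, MT1F and MT1X of the members, and MT3. Undetected MT1L lies between MT2A and MT1E, and undetected MT1M and MT1A lie between MT1E and MT1F. MT3, the brain metallothionein and the nearest of these genes to MT2A on its other side, had 3 and 5 reads in the U251 libraries and 0 in the others.

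**Figure D3:**
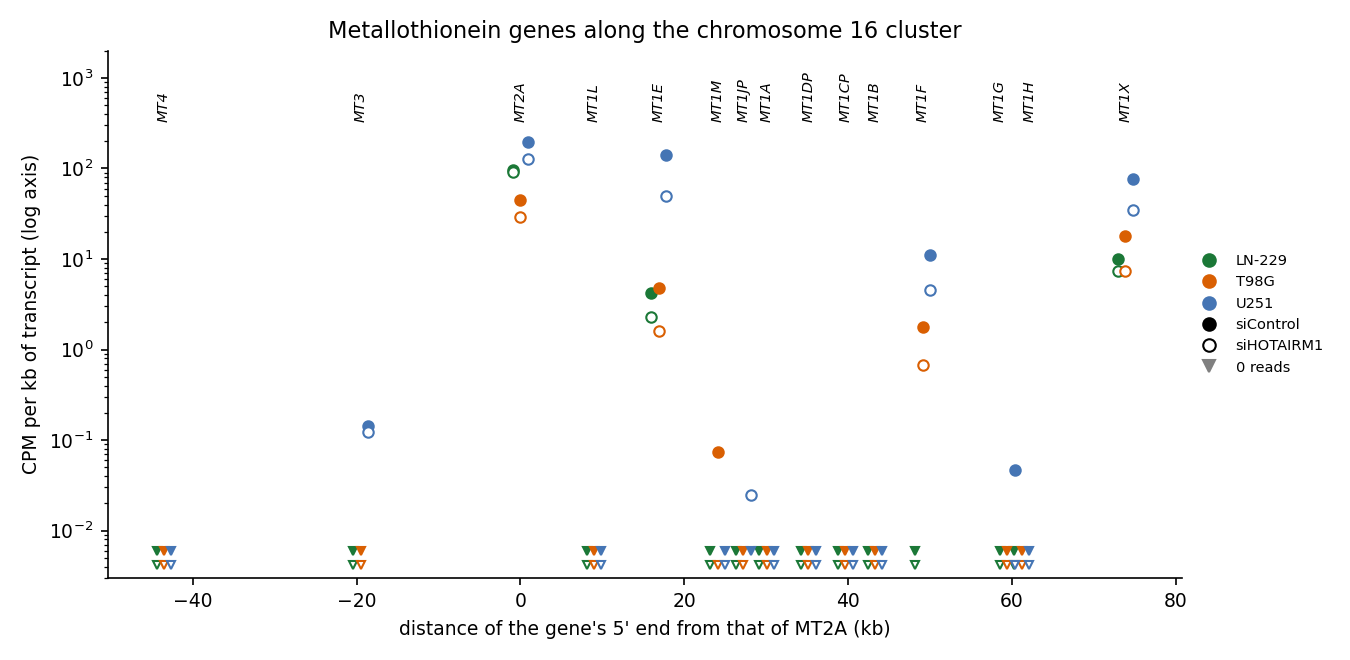
CPM per kb of transcript (log axis) of the listed metallothionein genes against the distance of the 5′ end from that of MT2A in kb, with filled points for siControl, open points for siHOTAIRM1 and triangles at the bottom for 0 reads. MT2A, MT1E, MT1F and MT1X stand out, with undetected genes between them.

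Metallothionein transcripts resemble each other, and the authors' counting splits reads between similar transcripts. Of the 87-base windows (the read length after trimming) of the reference transcripts, 0 of 315 in MT2A, 0 of 660 in MT1E and 0 of 339 in MT1F occurred unchanged in another gene, against 91 of 318 in MT1X, 10 of 324 in MT1G and 100 of 100 in MT1L. The windows of MT1X were shared with MT1G, the pseudogene MT1XP1 and 1 unnamed gene. MT1G had 10 shared windows and MT1XP1 1, so most of the 91 were shared with the unnamed gene. That gene starts at the same base of chromosome 16 as MT1X (56682470, plus strand) and overlaps it, so it is not a separate copy. It is not a member and was not matched to a deposited value. The windows of MT1L were shared with 1 other unnamed gene. It runs from 56617423 to 56618832 on the plus strand and encloses MT1L (56617563 to 56618680, plus strand). This gene was also not matched to a deposited value. Whether the authors' counting gave reads to that gene is not known, so the 0 reads of MT1L do not show that it is silent. Mismatched alignments were not searched, so the split of reads among members and with other genes, above all for MT1X, is uncertain. The processed pseudogenes MT1P3, MT1XP1 and MT2P1 together were at 1.78 CPM (siControl) and 1.38 CPM (siHOTAIRM1) in LN-229, 1.34 and 0.497 CPM in T98G, and 10.3 and 3.57 CPM in U251, and thus had the same order of conditions as the genes they derive from.

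The sum over the 8 metallothioneins does not depend on how reads were split among them. It still depends on any split with genes outside the 8. LN-229 had a sum of 46.2 CPM (siControl) and 41.6 CPM (siHOTAIRM1), which is 9.92% lower (95% interval 5.96 to 13.7%). T98G had 29.5 and 15.98 CPM, which is 45.9% lower (41.8 to 49.7%). U251 had 219 and 104 CPM, which is 52.5% lower (51.2 to 53.7%). The intervals of the 3 lines do not overlap, and a difference between the lines was not tested. On the scale of log2(CPM + 1), the sum changed by −0.15 (LN-229), −0.85 (T98G) and −1.07 (U251), with a mean of −0.69 ± 0.48 (SD, n = 3 cell lines). Without MT2A, which makes up most of the sum in LN-229, these changes were −0.51, −1.21 and −1.40.

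The libraries also differed as a whole. On the same scale, the 14294 genes whose mean reached 1 CPM had a median change of 0.01 (LN-229), −0.19 (T98G) and −0.03 (U251). Relative to these medians, the change of the metallothionein sum was −0.16, −0.66 and −1.04. The listed genes sum to different totals of CPM, and when each library was rescaled to its listed genes the sum was lower by 12.7% (LN-229), 36.6% (T98G) and 42.9% (U251). This rescaling moved the median change of all genes in U251 to 0.18. The direction of the sum was the same on each of these scales.

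MTF1, the zinc sensor of the pathway, was measured at 21.1 CPM (siControl) and 17.6 CPM (siHOTAIRM1) in LN-229. In T98G, MTF1 was at 14.4 and 10.3 CPM. In U251, it was at 32.6 and 27.0 CPM. The lines had the order of MT2A, with U251 highest and T98G lowest and no overlap between neighbours. The reduction of MTF1 was 16.5% in LN-229 (10.9 to 21.8%), 28.1% in T98G (20.9 to 34.7%) and 17.0% in U251 (11.8 to 21.9%). Rescaled to the listed genes, it was 19.1%, 15.8% and 0.174%, so the values in T98G and above all in U251 depended on the scale. Protein level and activity of MTF1 were not measured.

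SLC30A1, which exports zinc across the plasma membrane and is itself a target of MTF1, was at 35.7 CPM (siControl) and 25.7 CPM (siHOTAIRM1) in LN-229. In T98G, SLC30A1 was at 14.5 and 8.74 CPM. In U251, it was at 75.6 and 36.5 CPM. U251 was again highest and T98G lowest in both conditions. The reduction of SLC30A1 was 27.9% in LN-229 (24.1 to 31.5%), 39.5% in T98G (33.1 to 45.3%) and 51.7% in U251 (49.5 to 53.9%). In LN-229, SLC30A1 thus lost a larger share than MT2A, and after rescaling to the listed genes its reductions were 30.1%, 29.1% and 42.0%.

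**Figure D4:**
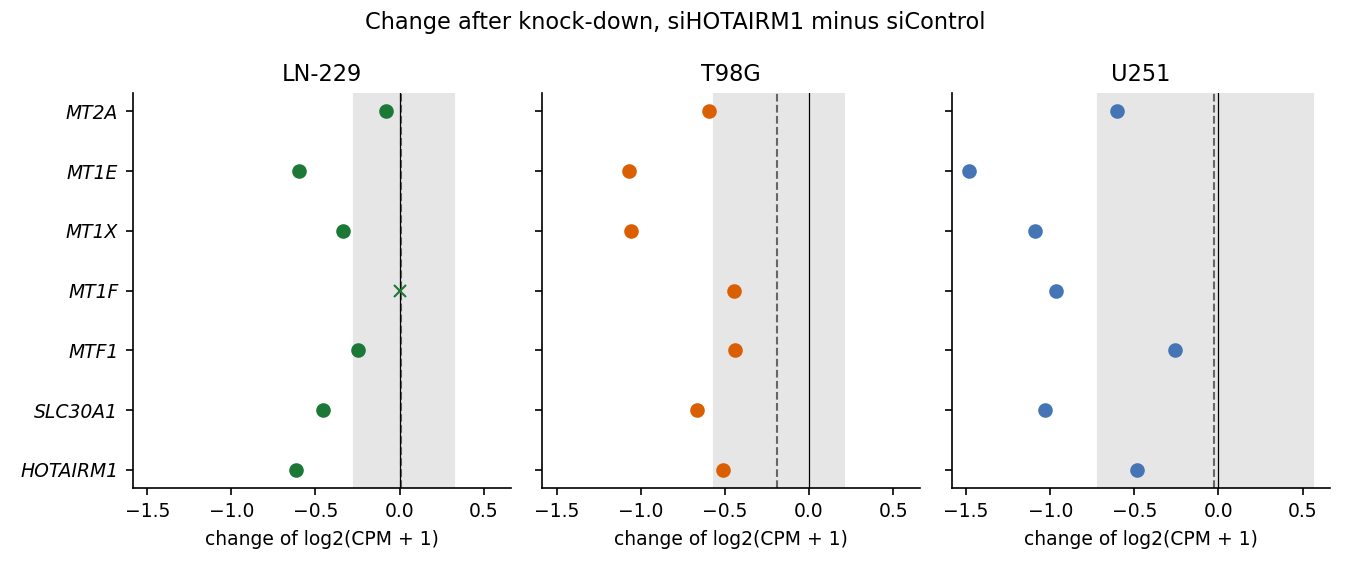
Change of log2(CPM + 1), siHOTAIRM1 minus siControl, of the detected members and HOTAIRM1 in each cell line (points, with a cross for MT1F at 0 reads in LN-229). The grey band holds the middle 90 percent of the 14294 genes and the dashed line their median, which is −0.19 in T98G. MT1E, MT1X and SLC30A1 lie left of the band in the 3 lines.

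Fold changes were counted on the log2(CPM + 1) scale, which understates the change of low genes. Of the 10 members, 4 (MT1A, MT1G, MT1L and MT1M) did not reach the mean of 1 CPM that the 14294 genes did. Of the other 6, 1 (MT1E) was lower by at least 1.5-fold in LN-229, where 0.602% of the 14294 genes were. In T98G, 4 members were (MT1E, MT1X, MT2A and SLC30A1), against 4.22% of the genes, and in U251 these and MT1F, 5 members, against 8.51%. With each library centred on its median or rescaled to its listed genes, the count in T98G was 2, against 1.10% (centred) and 1.45% (rescaled) of the genes, and in U251 4, against 6.16% and 3.54%. No member was higher by this fold in any line. The members were chosen on these changes, so nothing is read from these counts.

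Over the cell lines, limma with the cell line as block gave log2 fold changes (standard error) of −1.05 (0.16) for MT1E, −0.83 (0.15) for MT1X, −0.72 (0.15) for SLC30A1, −0.47 (0.13) for MT1F, −0.42 (0.15) for MT2A and −0.32 (0.14) for MTF1. The other 4 members did not reach the mean of 1 CPM and were not fitted, and MT1F reached it through U251. The estimate for MT1F counts LN-229, with 0 reads, as no change, and was −0.71 without LN-229 and −0.22 without U251. Of the 6 fitted members, 3 were past an adjusted threshold of 0.05 in the lower direction (MT1E, MT1X and SLC30A1), where 1.59% of the 14294 genes were, and 0 in the higher direction, where 0.413% were, and nothing is read from this count since the same contrast chose the members. Under the other settings this count was 0 to 4.

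The zinc transporters outside the 10 members give the setting of SLC30A1. Of the 9 other listed SLC30 genes, which move zinc out of the cytosol, 5 were tested, 1 was past the threshold in the lower direction and 0 in the higher, and their median log2 fold change was −0.29 against −0.07 over all genes tested. The gene past it was SLC30A5, which loads zinc into the secretory pathway, with a log2 fold change of −0.73 (SE 0.14, p after adjustment in limma 0.00296), lower in 3 of 3 lines as were 28.1% of all genes tested. SLC30A5 was at 34.8 CPM (siControl) and 23.1 CPM (siHOTAIRM1) in LN-229, 54.4 and 31.3 CPM in T98G, and 59.5 and 32.5 CPM in U251, a change near that of SLC30A1 itself (−0.72). The other SLC30 genes of highest mean level, SLC30A7 (log2 fold change −0.35), SLC30A9 (−0.20) and SLC30A6 (−0.05), did not pass.

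Of the 14 SLC39 genes, which bring zinc into the cytosol, 10 were tested, 1 was past the threshold in the lower direction and 0 in the higher, with a median log2 fold change of −0.25. SLC39A8, an importer of zinc and manganese, had a log2 fold change of −0.70 (SE 0.15, p after adjustment in limma 0.0118), lower in 3 of 3 lines. It was at 25.1 CPM (siControl) and 22.2 CPM (siHOTAIRM1) in LN-229, 21.2 and 9.21 CPM in T98G, and 32.8 and 18.4 CPM in U251. Like the metallothionein sum, SLC39A8 had its smallest change in LN-229. Falls of at least 1.5-fold were also rarest in LN-229 over the 14294 genes (0.602%, against 4.22% in T98G and 8.51% in U251). The likeness is thus not particular to SLC39A8. SLC39A14 (−0.41), SLC39A7 (−0.10), SLC39A1 (0.15) and SLC39A9 (−0.30), the importers of highest mean level, did not pass.

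Over the 8 lists of related genes, 3 of 65 tested genes were past the threshold, all lower, against 1.59% of the 14294 genes in that direction. The remaining one was the pseudogene MT1P3 (log2 fold change −0.56, adjusted p = 0.0450 from limma, lower in 3 of 3 lines). Mismatched alignments were not searched, so reads of the metallothionein members may have been counted at MT1P3. Its call may therefore not be independent of the members, which were chosen on this contrast. In LN-229 its direction rested on 10 and 7 reads, with a counting interval from 80.8% lower to 73.0% higher. MT1P3 reached the mean of 1 CPM through U251 (5.15 and 1.31 CPM), and without U251 its log2 fold change was −0.13 (adjusted p = 0.827 from limma). Without T98G 0 of the list genes passed, without U251 1 passed, and without the cell line in the model 0 passed. With libraries centred on their median SLC30A5 alone passed, and rescaled to the listed genes 0 did.

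**Figure D5:**
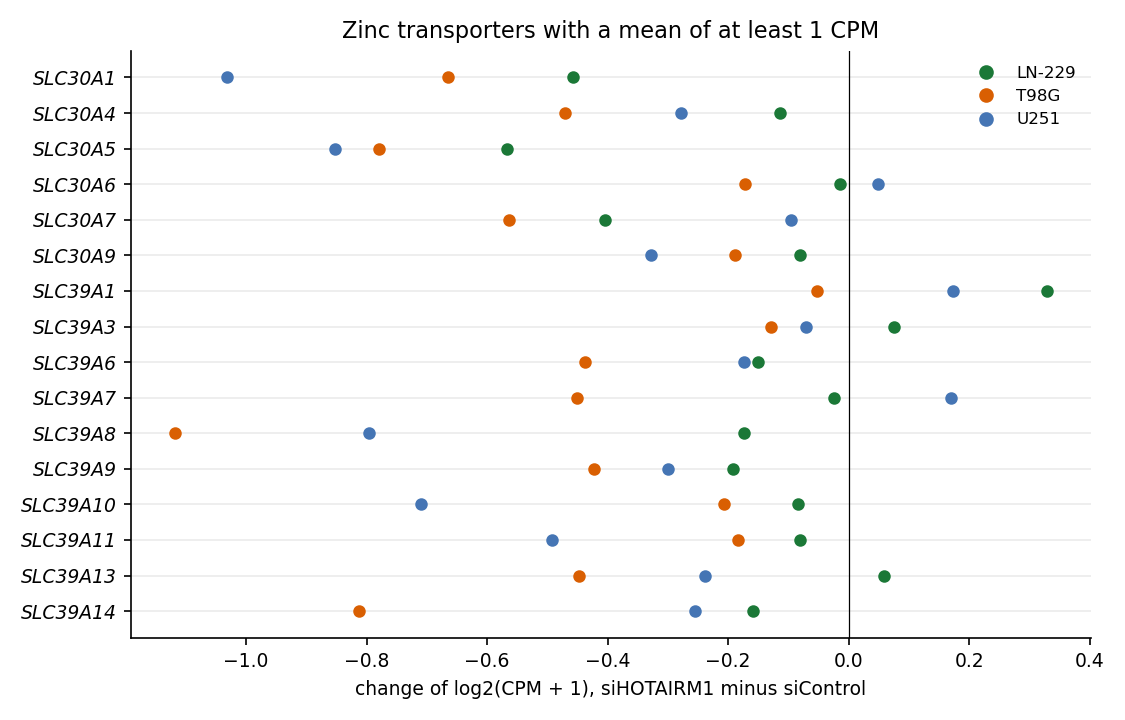
Change of log2(CPM + 1), siHOTAIRM1 minus siControl, of SLC30A1 and the 15 other zinc transporter genes whose mean reached 1 CPM, with 1 point per cell line. SLC30A1 (−0.46, −0.66 and −1.03) and SLC30A5 (−0.57, −0.78 and −0.85) lie left of 0 in the 3 lines, and SLC39A8 is nearest to 0 in LN-229 (−0.17).

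Other responses that share inducers with the metallothioneins were counted beside them. Of 11 copper handling genes, 11 of iron handling, 13 of the heavy metal and oxidative stress response, 6 of the glucocorticoid response and 7 neighbours of the cluster that were tested, 0 were past the threshold from limma. At an unadjusted p under 0.05, the counts of these 5 lists were 5, 1, 2, 2 and 1, where 18.3% of the 14294 genes were. Of the genes counted, ATP7B (copper, log2 fold change 0.30) and PER1 and KLF9 (glucocorticoid, 0.33 and 0.35) were higher after knock-down and the others lower. Their median log2 fold changes were −0.25, −0.19, −0.15, −0.00 and −0.07, against −0.07 over all genes. HMOX1, which heavy metals induce along with MT2A, was named after its values were seen. It was at 2.65 and 4.26 CPM in LN-229, 17.1 and 12.3 CPM in T98G, and 40.4 and 40.3 CPM in U251. HMOX1 so lacked the order of conditions that MT2A, which was chosen on this change, had in the 3 lines. In the same list 3 of 13 genes had that order, where 28.1% of the 14294 genes did: GCLM (log2 fold change −0.42), NQO1 (−0.39) and HSPH1 (−0.17). NUDT21, NUP93 and OGFOD1, genes beside the metallothionein cluster, had log2 fold changes of −0.07, −0.03 and −0.35.

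Likeness to the metallothionein sum was measured as Pearson's r of log2(CPM + 1) with log2(sum + 1) over the 6 libraries, as a description. The closest genes outside the members were USP8, AGK, RPL12, VPS41 and RP3-486I3.4, with r from 0.998 to 0.999. The libraries come in pairs of a cell line, and 14.8% of the genes had an r of at least 0.9, so these values mostly follow the order U251, LN-229, T98G. Among the members, r with the sum was 0.97 for MTF1 and 0.95 for SLC30A1. Rescaled to the listed genes, the r of these 5 genes ranged from 0.928 (USP8) to 0.9997 (RP3-486I3.4).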

How the data were processed

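The authors prepared libraries from 500 ng of total RNA with the TruSeq v2 kit and sequenced 101 cycles. They trimmed 13 bases at the 5′ and 1 at the 3′ end in Partek Flow and aligned to hg38 with STAR 2.4.1d. Reads left unaligned were passed to Bowtie2, and the combined alignments were quantified on Ensembl release 84 by Expectation-Maximization. The deposited values are CPM with 0.0001 added. Listed genes sum to 42.9 to 67.2% of 10⁶ CPM. Of the low values, 81.5 to 83.1% were whole reads (tolerance 0.02 reads), so no count test was used.

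The 14294 genes whose mean reached 1 CPM were tested on log2(CPM + 1) in R 4.3.3 by limma 3.58.1 (trended variance, blocks of cell lines, p adjusted by Benjamini-Hochberg). After subtraction of the condition means, r across genes was 0.948 to 0.967 between a line's own libraries and −0.505 to −0.467 between lines. The negative values follow from subtracting a mean over only 3 lines, and nothing is read from them. The method was tested on simulated data, with a criterion that was changed after a first version failed. Power with 3 cell lines was limited, so a gene not past the threshold may still have changed. Within a line, intervals are 95% Wilson (levels) or exact conditional binomial (changes), from reads. Gene models are GENCODE v44. Named genes are the 10 members, HOTAIRM1, in each of 8 lists the genes past the threshold and the 4 of highest mean CPM (1 of these is not reported here), and the 5 genes most like the summed metallothioneins; HMOX1 and GCLM were named after their values were seen. The members and lists were chosen with earlier results of these data known. The alternatives were no block, a pseudocount of 0.1, no filter, median centring, rescaling to the listed genes, a paired t-statistic, other sums and leaving out each line.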

Additional observations from a re-analysis of the deposited data

Results flagged for a closer look

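No group holds enough libraries to look for an outlying one. The genes named in the report by rule, and HMOX1, were looked at. Some of them moved in opposite directions in 2 cell lines, with counting intervals on either side of 0 as measured, relative to the line median and after rescaling. Each line has 1 library per condition and none of these differences was tested. The values are differences of the log2(CPM + 1) changes. In iron storage, FTL differed by 0.94 and FTH1 by 0.80 between LN-229 (0.20 and 0.31) and T98G (−0.75 and −0.49). Between the same lines, HMOX1, chosen after its values were seen, differed by 0.97 (0.53 and −0.45) and TXNRD1 by 0.48. Between U251 and T98G, the copper importer SLC31A1 differed by 0.81, SLC39A7 by 0.62, SLC7A11 by 0.57 and NUP93 by 0.52, each higher in U251 and lower in T98G. Between U251 and LN-229, SLC7A11 differed by 0.55. None is among the 10 metallothionein and zinc response genes, which were chosen on these changes; 4 of them have no interval in any line and MT1F has none in LN-229.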

How the results depend on the processing

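Of 14294 genes, 286 were past the threshold (227 lower). Without the block the count was 0 (29 at an unadjusted p under 0.05, limma), without the filter 0 (2477), and with the paired t-statistic 0 (896). A pseudocount of 0.1 gave 683 (534 lower), median centring 41 (26 lower) and rescaling 25 (15 lower). Leaving out 1 cell line gave 0 (without T98G; 1206 unadjusted) to 270. Of the listed zinc and metal genes, 3 were past it, against 5 with the pseudocount of 0.1, 1 with centring, 0 with rescaling, no block, no filter or the paired t-statistic, and 0 to 3 without a line.

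With each library centred on its own median, not on the median change of the line, the change of the metallothionein sum was −0.65 in T98G and −0.99 in U251. It was −0.64 and −0.80 with rescaling and, without MT2A, −0.51 (LN-229), −1.21 (T98G) and −1.40 (U251). The members past the fold in T98G were 2 with centring or rescaling. The members past the adjusted threshold, 3 of 6, were 0 (no block, no filter, paired t-statistic, without T98G) to 4. The causes were not tested. The 48 estimates of the 6 fitted members ran from −1.28 to −0.18. Their direction is no sign of stability, since the members were chosen on this change, and leaving out the block or the filter keeps the estimate as it is. With 1 library per line and condition, the spread within a line is unknown, and MT1A, MT1G, MT1L and MT1M lie under the depth's limit.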
